A study of Bombus terrestris with 70 samples.

Results

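The 40 genes described here are the brain-enriched genes of Bombus terrestris whose level in the brain followed that of LOC100644055 most closely, out of 10230 genes measured in all 3 tissues. They were chosen on measured values. A gene was called brain-enriched when its mean share of the library in control TP1 brains was above 20 ppm (1 ppm is 1 part in 1000000 of the library's total) and, after adding 0.1 ppm, exceeded the larger of its fat body and ovary shares by a log2 of more than 5. This gave 215 genes. They were ranked by the Pearson r of log2(value + 1) with LOC100644055 over the 22 brain libraries, and the 40 of highest r, LOC100644055 among them, were kept. Brain enrichment in control TP1 and correlation in the brain are therefore descriptions of the choice. Within the 40, LOC100644055 and 10 other genes varied together at least 1135-fold between brains, while 28 genes varied at most 6.79-fold and followed it only weakly.

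Messenger RNA of 1 tissue of a single queen was sequenced per library. In egg removal (R) queens the eggs were taken away, which was meant to raise the costs of reproduction, and in control (C) queens they were removed and then replaced, as a control for the disturbance. Queens were sampled when 60% (TP2) or 10% (TP1) of their cohort had died. The brain gave 5 libraries in egg removal TP2, 6 in egg removal TP1, 5 in control TP2 and 6 in control TP1. The fat body gave 6 in each group but control TP2, which had 4, and the ovary 6 in each group. No genotype, strain or age in days is given in the labels. The brain holds the neurons and glia of the central nervous system and the cells that release neurohormones. The fat body stores fat and makes yolk protein, much as a liver does, and the ovary makes the eggs.

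Values are normalized read counts, scaled within each tissue, so a level set across tissues is a description with no test. Estimated depth was 24.1 to 56.0 M reads (M for 1000000) per brain library, 12.1 to 60.2 M per fat body library and 19.6 to 68.0 M per ovary library. The members carry identifiers only: 0 of the 40 have another symbol, 33 were found in the RefSeq gene table used here, and that table holds no product names. No function is therefore given to any of them. The 8 lists of marker genes were looked for by symbol among the genes of the brain table only. Those for neurons, glia, photoreceptors, head glands, muscle, fat body and neuropeptides had 0 genes there under the listed symbols. Only 9 of the 10435 genes there carry a symbol other than an LOC identifier. The search could therefore hardly find such markers, whatever was expressed. The brain label and any share of RNA from other cells of the head were for this reason not tested. From the list of brain regulators, Kr-h1 and fem were found, and they are given with the brain comparisons.

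The members fell into 2 unequal sets with a wide gap between them. LOC100644055 and 10 other genes formed the first. Their r with LOC100644055 ran from 0.95 to 0.99. LOC100646202 (0.99), LOC100644369 (0.99), LOC100644382 (0.99), LOC100643871 (0.99) and LOC100648490 (0.99) were the nearest, then LOC100645956 and LOC100648305 (0.98 each), LOC100644337 (0.98), LOC100646942 (0.95) and LOC100645577 (0.95). Whether any of these genes share reads with near-identical copies was not tested. LOC100648810 followed alone at 0.77. The other 28 genes began at 0.48 (LOC100651356) and ended at 0.28.

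**Figure D1:**
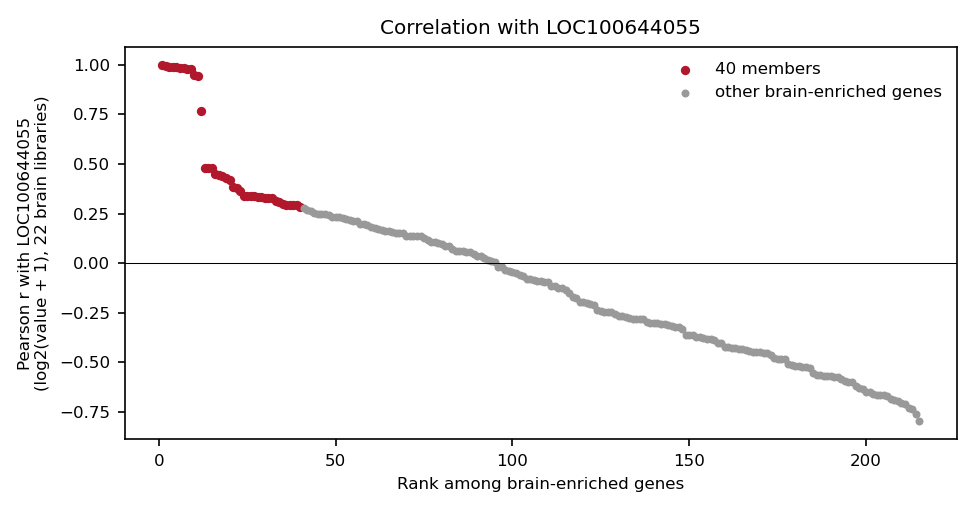
Pearson r with LOC100644055 (y axis, log2(value + 1) over 22 brain libraries) of the 215 brain-enriched genes by rank (x axis), with the 40 members in red. The first 11 genes lie at 0.945 or above and 1 gene at 0.77. From rank 13 (0.48) on the points form 1 continuous slope that runs through the limit at rank 40 down to -0.80.

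The limit at rank 40 lay inside this slope. Just inside it were LOC100644378, LOC100645409, LOC100648142 and LOC100643341 (r of 0.30, 0.29, 0.29 and 0.29) and LOC110119166 (0.28). Just outside were LOC100644894 (0.28), LOC100644271 (0.27), LOC100647127 (0.26), LOC100649749 (0.25) and LOC100642393 (0.25). Over all 215 brain-enriched genes the median r was -0.09, and 120 of them had a negative r. Of all 10435 genes measured in the brain, 68 had r above 0.9 with LOC100644055, and 57 of them were not members. The label of genes that track LOC100644055 thus held for 11 genes and, more loosely, for LOC100648810. It did not describe the other 28.

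Brain values of LOC100644055 itself lay on either side of a wide gap, with none between 172467 and 2432845. In egg removal TP2 it stood at 4824013, 5599, 8498967, 5278676 and 3344176 normalized counts in replicates 1 to 5, against 6570, 73819, 9108, 116655 and 106121 in control TP2 (replicates 1, 2, 3, 4 and 6). In egg removal TP1 the lowest, median and highest values were 15209, 4133866 and 18776141, against 4888, 90569 and 7139581 in control TP1. Values above 1000000 were found in 4 of 5 egg removal TP2, 3 of 6 egg removal TP1, 0 of 5 control TP2 and 2 of 6 control TP1 brains, and the groups overlapped at both time points. The lowest of these 9 libraries had 2432845 and the highest of the other 13 had 172467. The limit of 1000000 is a round value inside this gap. The 13 were not at 1 level, since they ran from 4888 to 172467. In bulk tissue, fewer cells of a type and less RNA per cell cannot be told apart.

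**Figure D2:**
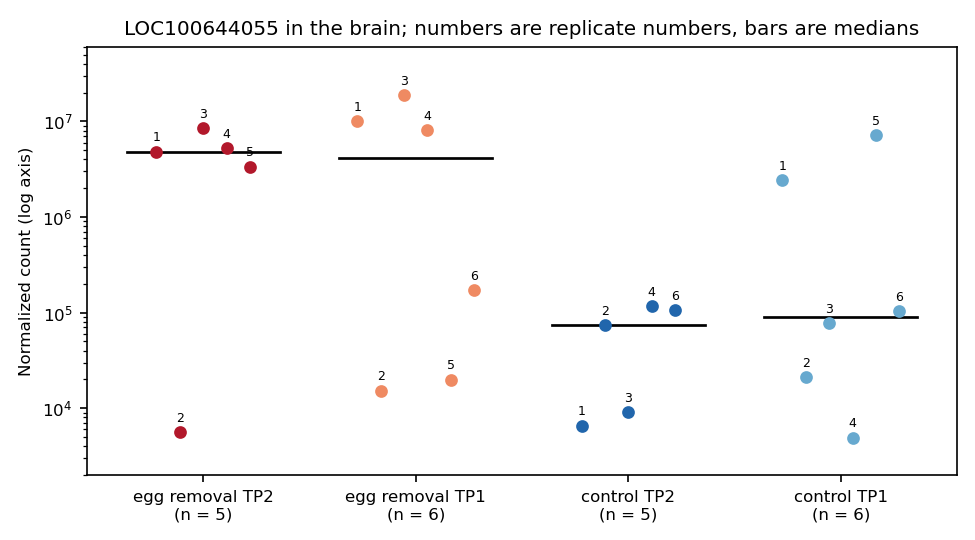
LOC100644055 in each of the 22 brain libraries (normalized count, log axis), by group, with replicate numbers beside the points and bars at the group medians. Points lie either at 2432845 and above or at 172467 and below, and each of the groups but control TP2 holds libraries of both kinds.

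LOC100644055 was the most abundant gene of all 9 libraries, where it took 5.79% to 23.3% of the library total. Together the 11 genes took 10.1% to 39.4% of the total in these libraries and 0.0403% to 0.859% in the other 13. In egg removal TP1 replicate 3 they reached 39.4%, and in control TP1 replicate 4 they were at 0.0403%. Of the 11 genes, 10 were among the 100 genes of highest peak share in the brain table. The normalized totals moved with them, at 42.0 to 80.4 M in the 9 libraries and 34.5 to 37.6 M in the 13. Estimated depth overlapped, at 33.6 to 50.6 M reads in the 9 and 24.1 to 56.0 M in the 13, and its part in the pattern was not tested.

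Each of the 11 genes had its 9 highest brain values in those same 9 libraries. LOC100643871 was at 496683, 678, 949910, 635755 and 200809 in egg removal TP2 (replicates 1 to 5), against 319, 1520, 721, 9798 and 3956 in control TP2 (replicates 1, 2, 3, 4 and 6). In egg removal TP1 it ran from 2286 to 2485116, against 592 to 664110 in control TP1. The single low egg removal TP2 brain was replicate 2, as for LOC100644055. The highest value of a gene over its lowest was between 1135 (LOC100644382) and 10249 (LOC100648305) for the 11, and 1.88 to 6.79 for the 28. LOC100644337 (9246), LOC100643871 (7801), LOC100645956 (5851) and LOC100644055 (3841) were the widest after LOC100648305.

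**Figure D3:**
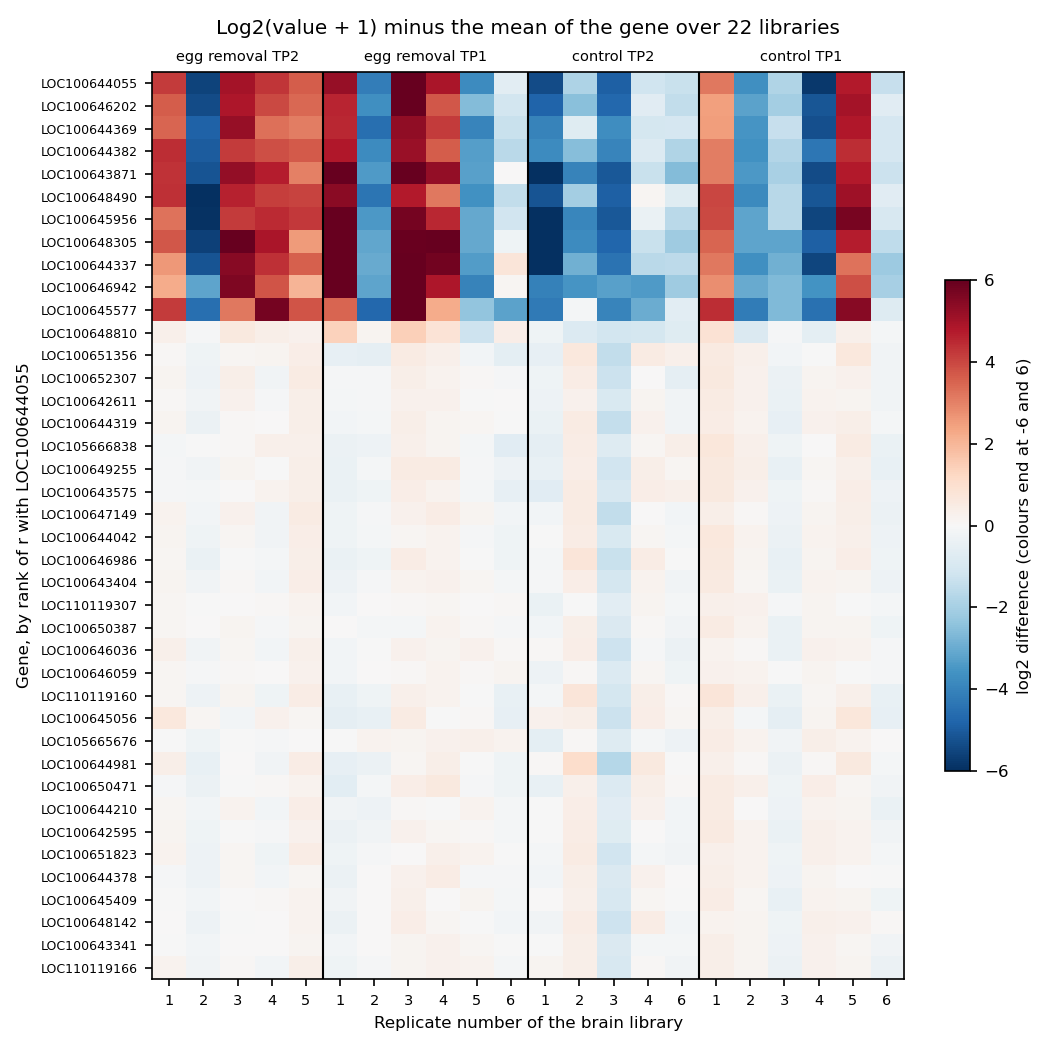
The 40 members (rows, by rank of r) in the 22 brain libraries (columns, by group and replicate), as log2(value + 1) minus the gene's mean over the libraries. The upper 11 rows change by a log2 of 10.1 to 13.3 and in step, LOC100648810 changes weakly, and the 28 rows below change by 0.91 to 2.76 with their common low point in control TP2 replicate 3.

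On the log2 scale the slopes of the 11 genes on LOC100644055 were 0.87 to 1.04, where 1 means a constant ratio. LOC100643871 was at 2.06% to 15.4% of the LOC100644055 count (median 10.5%) over the 22 libraries, in which LOC100644055 itself varied 3841-fold. LOC100645956 was at 2.01% to 16.0% (median 9.26%), LOC100646202 at 3.34% to 17.2% (median 7.77%) and LOC100648305 at 0.91% to 7.42% (median 3.55%). The ratio was looser for LOC100646942, at 3.53% to 88.0% (median 14.5%), and for LOC100645577, at 0.0761% to 1.61% (median 0.642%). These are ratios of counts, not corrected for gene length.

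The pattern also held among the high and among the low libraries taken alone, for most of the 11. Among the 9 high libraries the 10 genes had r of 0.18 to 0.98 with LOC100644055 (median 0.84), and among the 13 others 0.63 to 0.96 (median 0.91). LOC100643871 had 0.98 and 0.90, LOC100646202 0.92 and 0.96, and LOC100644369 0.91 and 0.95. The exceptions were LOC100645577 (0.18) and LOC100648490 (0.41) among the high libraries and LOC100646942 (0.63) among the low ones. Since the ranking used all these libraries, the values describe the choice and carry no test.

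Within the high libraries the genes did not form 1 block. Of the 55 pairs among the 11 genes, 3 had a negative r in the 9 high libraries, and all 3 held LOC100645577, paired with LOC100648305 (-0.12), LOC100644337 (-0.11) and LOC100646942 (-0.004). Over the 13 low libraries 0 pairs were negative and the lowest r was 0.21. LOC100646942 was at 1256119 to 3643149 in egg removal TP1 replicates 1, 3 and 4, against 298070 and 649718 in control TP1 replicates 1 and 5. In the same libraries LOC100645577 was at 14676, 106436 and 6162 in egg removal, against 28085 and 57743 in control. LOC100646942 was thus higher in all 3 of these egg removal libraries, and LOC100645577 was not. These libraries were picked for their LOC100644055 level, so the difference was not tested.

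LOC100648810 was the only member between the sets. It was at 3254, 2500, 3892, 3329 and 3077 in egg removal TP2, against 2177, 1471, 1225, 1246 and 1554 in control TP2, and the 2 groups did not overlap. The gene was chosen for its r with LOC100644055 over these same brains, so the separation is no separate evidence. The share of all genes that separate in this way was not counted. In egg removal TP1 it ran from 1089 to 7099, against 1400 to 4677 in control TP1. The log2 fold change at TP2 was 1.08 (SE 0.39, limma adjusted p = 0.0914). Its r with LOC100644055 was 0.62 among the 9 high libraries and 0.10 among the others.

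The other 28 genes varied by a median log2 range of 1.55 over the brain, against 1.17 for the 175 brain-enriched genes that are not members and 0.93 for all 10435 genes of the brain table. LOC100651356, the first of them, was at 2521, 1987, 2602, 2659 and 3209 in egg removal TP2, against 1725, 3753, 875, 3353 and 2956 in control TP2. The lowest brain value of all 28 genes fell in the same library, control TP2 replicate 3. That library was the lowest for 29.1% of the 175 brain-enriched genes outside the members and 16.7% of all brain genes. It had a low LOC100644055 value (9108), so it adds to a positive r. Without it the r of the 28 genes was 0.15 to 0.43 (median 0.23), against 0.28 to 0.48 (median 0.34) with it.

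Within the clusters of libraries the 28 did not follow LOC100644055. In the 9 high libraries all 28 had a negative r with it, from -0.67 to -0.06 (median -0.34). In the 13 others they had r of -0.04 to 0.39 (median 0.17). This is not particular to the members: 93.7% of the 175 other brain-enriched genes also had a negative r in the 9 libraries, with a median of -0.55, against 50.7% of all genes. Slopes of the 28 on LOC100644055 were 0.016 to 0.058.

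The brain enrichment of the 11 genes was carried by the libraries with a high LOC100644055 value. Levels in control TP1 averaged 33242 ppm in the brain for LOC100644055, against 20.2 ppm in fat bodies and 1.08 ppm in ovaries. In the brain LOC100644382 averaged 6188 ppm, LOC100645956 5084 ppm, LOC100646942 3369 ppm and LOC100643871 3002 ppm, shares that are not corrected for gene length. These means rest on replicates 1 and 5. With both left out, an alternative chosen after seeing the data, 3 of the 11 still exceeded the enrichment limit of 5, and all 28 did. The log2 enrichment of the 11 then ran from 0.89 to 6.14.

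The same measure was taken in groups that the choice of brain-enriched genes did not use. In egg removal TP2, 34 of the 40 members exceeded a log2 of 5, with all 11 genes and 22 of the 28 among them. In egg removal TP1 these were 36, 11 and 24. In control TP2, 12 members exceeded this limit, with 1 of the 11 genes (LOC100645956, 5.12) and 11 of the 28. No brain in that group had a high LOC100644055 value. Ovary levels also entered the measure. Ovary control TP2 replicate 1 or 4 was the highest ovary library for 22 of the 40 members, beside 39.2% of all genes. The parts of brain and ovary levels in this count were not tested. LOC100644055 lay just under the limit in control TP2, at 4.99, against 12.5 in egg removal TP2 and 12.8 in egg removal TP1. In control TP2 it averaged 1709 ppm in the brain, 40.8 ppm in the fat body and 53.7 ppm in the ovary (SD 126, n = 6). This ovary mean rested on replicate 5, with 16389 normalized counts, against at most 199 in any other ovary library. For LOC100645956 the ovary mean was likewise the larger, at 4.04 ppm (SD 9.39), against 1.19 ppm in the fat body. Of the 175 other brain-enriched genes, 87.4%, 90.9% and 63.4% exceeded the limit in egg removal TP2, egg removal TP1 and control TP2. All 40 members were above both other tissues in each of the 3 groups.

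Brain levels were compared between egg removal and control to ask how higher costs of reproduction bear on expression, and between time points to ask how it changes with age. All genes were fitted with limma, and a gene was called at a Benjamini-Hochberg adjusted p under 0.05. In egg removal against control at TP2, LOC100644055 had a log2 fold change of 5.23 (SE 2.45, limma adjusted p = 0.191). At TP1 it had 2.07 (SE 2.24, limma adjusted p = 0.671). The change at TP2 against TP1 was 1.01 in egg removal (SE 2.35, limma adjusted p = 0.994) and -2.14 in control (SE 2.35, limma adjusted p = 0.696). The interaction, the age difference among egg removal brains less the one among control brains, was 3.15 (SE 3.32, limma adjusted p = 0.999). None of these differences passed the test against the spread between queens, whose SD on the log2 scale was 4.43 in egg removal TP2, 4.71 in egg removal TP1, 2.02 in control TP2 and 4.02 in control TP1. Single libraries moved these values: the difference between egg removal and control at TP2 was 7.1996 without egg removal TP2 replicate 2 (limma adjusted p = 0.0646), and that at TP1 was 1.08 without control TP1 replicate 4 and 3.18 without control TP1 replicate 5.

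Since the members were chosen to vary with LOC100644055 over these same brains, their shared direction is no separate evidence. In egg removal against control at TP2, limma called 0 of the 40, beside 8.57% of the 10388 genes tested (3.68% higher and 4.89% lower), and 11 had an unadjusted p under 0.05, as had 24.9% of all genes. All 40 had a positive log2 fold change, with a median of 5.23 for the 11 genes and 0.19 for the 28, against 0.002 over all genes. At TP1 limma called 0 of 40, beside 2.37% of all genes (0.712% higher and 1.66% lower), and 0 had an unadjusted p under 0.05. The medians were 1.83 for the 11 and -0.07 for the 28, against 0.004 over all genes.

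With age in control brains 1 of the 40 was called, beside 2.57% of all genes (1.74% higher and 0.828% lower). An unadjusted p under 0.05 was found for 3 of the 40, beside 17.5% of all genes. The called gene was LOC105665676, at 1858 ± 424 in control TP2 (SD, n = 5) and 2635 ± 424 in control TP1 (SD, n = 6). The log2 fold change was -0.52 (SE 0.13, limma adjusted p = 0.0306). Its values ran from 1371 to 2413 in control TP2, against 1995 to 3161 in control TP1, so the groups overlapped. The call was lost without any 1 of control TP2 replicates 1 and 6 or control TP1 replicates 1, 2 and 4 (adjusted p of 0.0541 to 0.0786), and when every library was brought to 1 common total (0.852). With age in egg removal brains limma called 0 of 40, beside 0.0481% of all genes. An unadjusted p under 0.05 was found for 0 of 40, beside 5.84% of all genes. For the interaction limma called 0 of 40, beside 0.00% of all genes. An unadjusted p under 0.05 was found for 1 of 40, beside 4.29% of all genes.

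**Figure D4:**
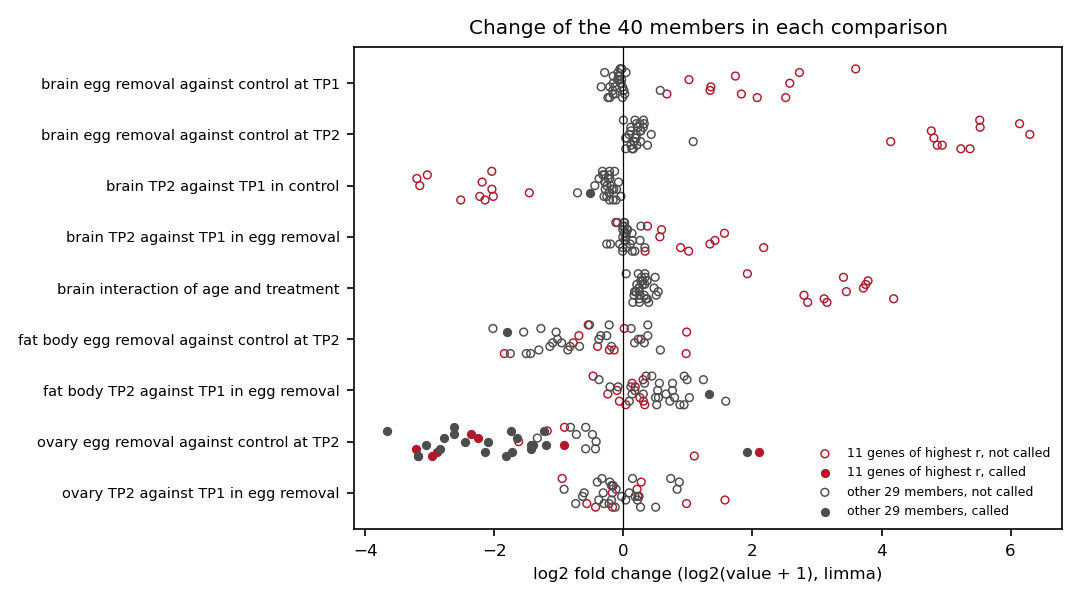
Log2 fold change (x axis, on the log2(value + 1) scale) of each of the 40 members in each comparison (rows), with the 11 genes of highest r in red and filled points for calls at a limma adjusted p under 0.05. The 11 genes spread far from 0 in the brain without a call, and calls gather in the ovary at TP2, with 26 lower and 2 higher in egg removal, which become 16 lower without control TP2 replicates 1 and 4.

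Kr-h1, a transcription factor that responds to juvenile hormone in insects, and fem, a gene of sex determination in bees, had r of 0.66 and 0.53 with LOC100644055 over the brain libraries. Neither is brain-enriched. Kr-h1 was at 990 ± 140 in egg removal TP2 and 670 ± 223 in control TP2 brains (SD, n = 5 each), a log2 fold change of 0.62 (SE 0.18, limma adjusted p = 0.0403). The Kr-h1 values ran from 758 to 1107 in egg removal TP2, against 395 to 1000 in control TP2, so the groups overlapped. Whether this call holds without single libraries or with equal library totals was not examined here. For fem no brain comparison was called.

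The fat body and ovary libraries did not enter the ranking. In the fat body LOC100644055 was at 609, 26.1, 552, 211, 482 and 1167 in egg removal TP2 (replicates 1 to 6), against 1319, 1233, 783 and 1378 in control TP2 (replicates 1, 2, 3 and 5). In egg removal TP1 it ran from 78.8 to 2491, and in control TP1 from 85.1 to 1985. All of these lie below the lowest brain value. In the ovary it was at 4.84 to 177 in egg removal TP2, 12.4 to 98.2 in egg removal TP1 and 7.14 to 196 in control TP1. Control TP2 ovaries had 181, 117, 66.9, 199, 16389 and 23.6 in replicates 1 to 6, so replicate 5 stood far above every other ovary library.

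In that ovary library LOC100644055 and 3 more of the 11 genes stood far above all other ovaries. LOC100643871 was at 1745, against at most 35.7 in any other ovary library. LOC100645956 was at 1220, against at most 28.7, and LOC100648305 at 617, against at most 16.8. Relative to LOC100644055 these were 10.6%, 7.44% and 3.76%, each inside the range of the same ratio over brain libraries and near its median. These 3 genes were singled out after their values were seen. LOC100646942 also had its highest ovary value there, 5757, against at most 3760 in the others. LOC100646202 (1249) and LOC100644382 (3620) were within the range of other ovary libraries, whose medians were 2205 and 2288. LOC100648490 (1181), LOC100644337 (1193), LOC100644369 (1364) and LOC100645577 (237) were above the medians of the other ovaries (82.9, 87.9, 107 and 43.95) but below their highest values. At 7.28% and 8.32% of LOC100644055, LOC100644337 and LOC100644369 lay above their brain maxima of 6.82% and 4.73%.

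**Figure D5:**
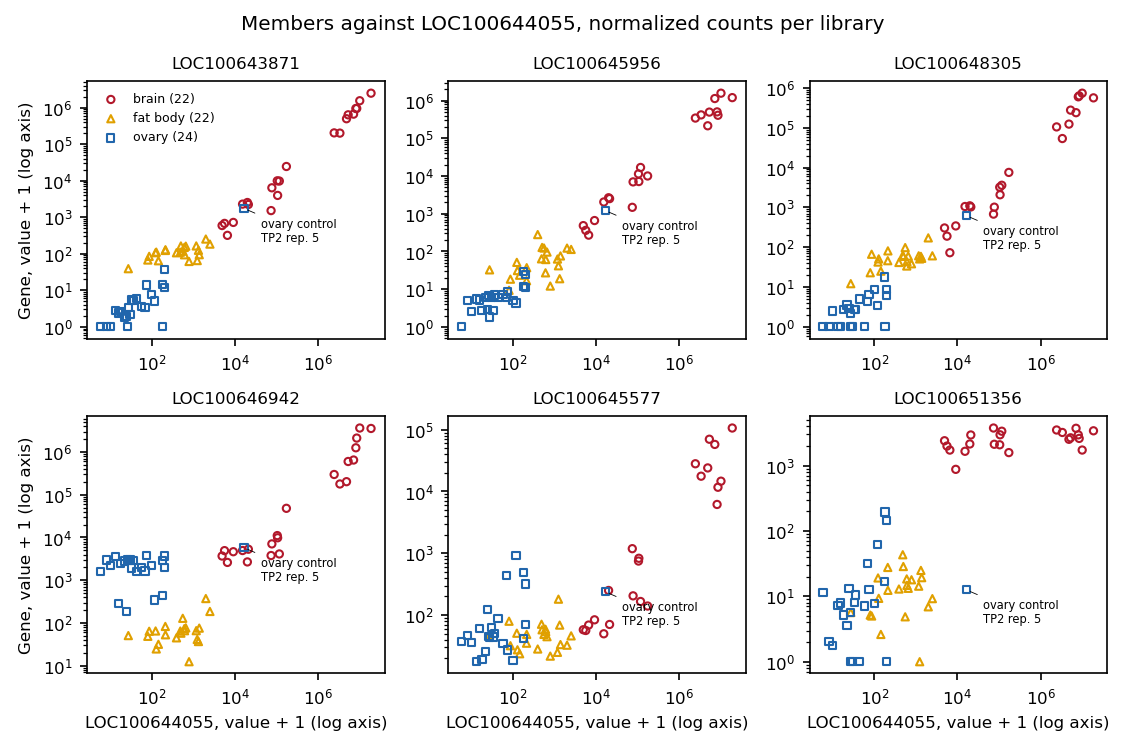
Normalized counts plus 1 (log axes) of 6 members against LOC100644055 in every brain, fat body and ovary library. For LOC100643871, LOC100645956 and LOC100648305 the marked ovary library (control TP2 replicate 5) falls on the line of brain points, LOC100646942 is also highest in that library among the ovaries, and LOC100651356 is high in all brains and low elsewhere.

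Correlation with LOC100644055 outside the brain was present for part of the 11 genes. In the fat body 6 of the 10 had r above 0.5, beside 2.54% of 10431 genes, and the 10 ran from 0.09 (LOC100645577) to 0.87 (LOC100648490). In the ovary 6 of the 10 had r above 0.5, beside 8.23% of 10417 genes, from -0.39 (LOC100646202) to 0.90 (LOC100645956). Without ovary control TP2 replicate 5 the count was again 6 of 10, beside 16.7% of genes, and LOC100645956 had 0.74 and LOC100643871 0.71. Of the 28, 3 had r above 0.5 among fat bodies and 5 among ovaries, and 10 among ovaries without control TP2 replicate 5. The points share library depth and scaling, so these are descriptions. Whether fat body and ovary libraries came from the same queens as the brain libraries was not tested. LOC100646202, LOC100644382 and LOC100646942 had ovary medians of 2205, 2288 and 2258 normalized counts outside control TP2 replicate 5, so they were present there without LOC100644055 being high (median 31.7).

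Egg removal against control at TP2 and age in egg removal were tested in the fat body and ovary, since these groups did not enter the choice. All 40 members passed the filter on low values in both tissues. In the ovary at TP2, 28 of the 40 were called, 26 lower and 2 higher in egg removal, beside 58.9% of all 10401 genes (30.0% lower and 28.9% higher). The median log2 fold change was -1.63 for the members and -0.04 over all genes. Of the 11 genes 6 were lower and 1 higher. Among the 175 other brain-enriched genes 113 were lower and 1 higher, so the excess of lower genes is not particular to the members. When every library was brought to 1 common total, 26 members were called.

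Control TP2 replicates 1 and 4 stood apart from the other ovary libraries. Their estimated depth was 19.6 and 23.7 M reads, against at least 43.6 M in the others, and their normalized totals were 62.1 and 60.2 M, against at most 54.3 M. One of them was the highest ovary library for 22 of the 40 members, for 66.9% of the other brain-enriched genes and for 39.2% of all genes. With both left out, an alternative chosen after seeing the data, 16 members were called, all lower in egg removal, beside 44.9% of 10379 genes (22.4% lower), and the median log2 fold change of the members was -1.41. The part of depth in the ovary result was not tested.

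LOC100645577 changed most clearly. It was at 43.1, 35.96, 41.3, 34.7, 49.4 and 86.6 in egg removal TP2 ovaries, against 481, 917, 432, 316, 237 and 120 in control TP2, with no overlap. The log2 fold change was -2.88 (SE 0.37, limma adjusted p = 1.92e-05). LOC110119160 was at 68.3 ± 49.6 in egg removal and 733 ± 588 in control TP2 (SD, n = 6 each), with a log2 fold change of -3.19 (SE 0.56, limma adjusted p = 0.000124). LOC100644319 was at 86.5 ± 36.9 in egg removal and 709 ± 518 in control TP2 (SD, n = 6 each), with -2.63 (SE 0.48, limma adjusted p = 0.000167). The values of LOC110119160 overlapped between the groups. Those of LOC100644319 did too, with 125 and 147 in control TP2 replicates 5 and 6 and at most 147 in egg removal TP2. Without control TP2 replicates 1 and 4 all 3 genes were still called, with log2 fold changes of -2.80, -2.45 and -1.98 (limma adjusted p of 8.55e-05, 0.00139 and 0.00183).

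The 2 genes higher in egg removal ovaries were LOC100646202 and LOC100647149. LOC100646202 had 1385 to 6899 in egg removal TP2, against 47.5 to 1978 in control TP2, a log2 fold change of 2.11 (SE 0.63, limma adjusted p = 0.00709). Without control TP2 replicate 1 this was 1.40, and without replicates 1 and 4 it was 0.95 and no longer called (limma adjusted p = 0.0545). It is the gene of highest r with LOC100644055 in the brain and had the lowest r with it in the ovary. LOC100647149 had 430 to 1343 in egg removal TP2, against 10.3 to 1148 in control TP2, with 1.91 (SE 0.77, limma adjusted p = 0.0376), and its call was lost without any 1 of control TP2 replicates 1 and 4 or egg removal TP2 replicates 1, 4 and 5 (adjusted p of 0.0532 to 0.12). Without control TP2 replicate 1 its log2 fold change was 1.44, without replicate 4 it was 1.10, and without both it was 0.31 (limma adjusted p = 0.548). LOC100644055 was itself lower in egg removal ovaries, by a log2 fold change of -2.96 (SE 1.14, limma adjusted p = 0.0302). Without control TP2 replicate 5 this was -1.72 (limma adjusted p = 0.0795), and the call was also lost without egg removal TP2 replicate 2 (0.076) or 4 (0.0663), or without control TP2 replicates 1 and 4 together (-3.07, limma adjusted p = 0.0643).

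With age in egg removal ovaries limma called 0 of 40 members, beside 0.00% of all genes. An unadjusted p under 0.05 was found for 1 member, beside 2.75% of all genes. In the fat body at TP2, 1 of 40 was called between treatments, beside 4.60% of 10383 genes (2.31% higher and 2.29% lower). This was LOC100642595, at 38.2, 47.9, 17.1, 40.4, 92.6 and 67.3 in egg removal, against 261, 197, 189 and 65.8 in control. Control replicate 5 fell within the egg removal range. The log2 fold change was -1.81 (SE 0.42, limma adjusted p = 0.0239), and the call was lost without control TP2 replicate 1, 2 or 3 (adjusted p of 0.054 to 0.122). The median over the members was -0.53, against -0.64 over the other brain-enriched genes and -0.002 over all genes.

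With age in egg removal fat body, 1 of 40 was called, beside 5.99% of all genes (2.56% higher and 3.43% lower). LOC110119166 was at 105 ± 51.1 in egg removal TP2 and 39.2 ± 14.5 in egg removal TP1 (SD, n = 6 each), a log2 fold change of 1.33 (SE 0.38, limma adjusted p = 0.0441). The call was lost without any 1 of egg removal TP2 replicates 1, 2, 5 and 6, egg removal TP1 replicates 2 to 6, control TP2 replicate 3 or control TP1 replicates 1 to 3 (limma adjusted p of 0.0507 to 0.0978). No pair of members were neighbours in the RefSeq gene order. Of the 33 members found there, with 9 of the 11 genes among them, 0 lay next to another. The 204 brain-enriched genes found held 10 such pairs. That larger set has many more possible pairs, so no difference is read from the counts.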

How the data were processed

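The authors deposited 1 table of normalized read counts per tissue, a signal unit: kallisto 0.46.1, R 4.0.1 and DESeq2 1.28.1 are named, per the submitters' processing notes, without roles, and the genome build is not given in the sources used here. Per the labels' protocols, libraries were stranded and each was sequenced on 2 lanes. The deposited values have decimals and whole reads were not recovered, so depth is an estimate in which the smallest values above 0 of a library stand for 1 read. The 3 tables hold 68 libraries of 70 labelled samples. Fat body control TP2 replicates 4 and 6 were not analysed here.

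From these values log2(value + 1) was fitted per tissue with limma 3.58.1 (trend, robust, statmod 1.5.0, R 4.3.3) over 4 groups, for genes with a mean of at least 1 in at least 1 group. P-values were adjusted over all genes tested. Fold changes are on that log2 scale, which understates low genes. The fit was tested on simulated data. Other numbers came from Python 3.11.15 with pandas 2.3.3 and numpy 2.4.6.

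The members and lists were chosen with earlier results of these data known. Genes named are LOC100644055, the members of highest r, level and range, those beside the limit at rank 40, and those called. Alternatives were another pseudocount, no filter, equal library totals, a replicate block, other membership rules, leaving out each library and leaving out pairs that stood apart. Within a tissue, replicates are separate queens.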

Additional observations from a re-analysis of the deposited data

Results flagged for a closer look

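In 228 combinations of a gene and a group of 4 to 6 libraries, 25 had a highest or lowest library far from the others by Dixon's test at the 95% level. Chance gives about 1 in 20. Of these, 9 were the low value of brain egg removal TP2 replicate 2. It had 5598.53 normalized counts of LOC100644055, 496.24 of LOC100646202, 173.11 of LOC100644369, 1829.34 of LOC100644382 and 678.08 of LOC100643871. It also had 133.27 of LOC100648490, 362.08 of LOC100645956, 174.93 of LOC100644337 and 55.2 of LOC100645577. These 9 genes vary together, so this is 1 observation on 1 queen.

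Ovary control TP2 replicate 5 was high for LOC100644055 (16389.15) and LOC100648305 (617.0). In other ovary groups, LOC100644382 was high in egg removal TP1 replicate 3 (4772.91), LOC100648490 in egg removal TP2 replicate 3 (953.51), LOC100644337 in control TP1 replicate 5 (2848.84), LOC110119160 in egg removal TP1 replicate 1 (126.7) and LOC105665676 in egg removal TP2 replicate 2 (9.69). LOC100646942 was low in ovary control TP1 replicate 3 (290.35).

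In the fat body LOC100648490 was low in egg removal TP2 replicate 2 (1.84) and in control TP2 replicate 3 (7.61). LOC100646942 was high in egg removal TP2 replicate 3 (127.66) and in control TP1 replicate 5 (371.8). LOC105665676 was high in control TP2 replicate 1 (15.94). Low values were those of LOC100645577 in egg removal TP2 replicate 6 (23.9), LOC110119160 in control TP1 replicate 4 (20.61) and LOC100651356, which is listed at 0.0 in control TP2 replicate 2.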

How the results depend on the processing

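Equal library totals gave 0 members called with age in control brains, against 1, and 3 with age in egg removal fat body, against 1. A pseudocount of 10 gave 2 in egg removal against control fat body at TP2, against 1. No filter on low values changed no count of members called. An enrichment limit of 6 kept 24 of the 40 members, ranking by ppm 27 and by Spearman rho 33, and adding 1 to ppm left 7 members above the limit in control TP2 brains, against 12. Over all genes, equal totals gave 49 calls in brain egg removal against control at TP1 (246 in the reported fit), 287 at TP2 (890), 27 with age in control (267), 3 with age in egg removal (5) and 1905 with age in egg removal fat body (622).

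Leaving out 1 library at a time gave 0 to 0 members called in brain egg removal against control at TP1, 0 to 2 at TP2, 0 to 1 with age in control, 0 to 0 with age in egg removal and 0 to 0 for the interaction. It gave 0 to 5 in egg removal against control fat body at TP2, 0 to 3 with age in egg removal fat body, 22 to 29 in egg removal against control ovaries at TP2 and 0 to 0 with age in egg removal ovaries. The 2 calls in brain at TP2 came without egg removal TP2 replicate 2, and the 5 in fat body without control TP2 replicate 5. Membership kept 34 to 40 genes, and without control TP1 replicate 5 it kept 8 of the 11 of highest r. The change of LOC100644055 with age in egg removal brains ran from -0.0735 without egg removal TP1 replicate 2, a reversed sign, to 2.9836 without egg removal TP2 replicate 2. Its other brain values ran from 1.08 to 3.18 for treatment at TP1, from 4.56 to 7.1996 at TP2, from -3.14 (without control TP1 replicate 4) to -1.04 (without replicate 5) for age in control and from 2.05 (without control TP1 replicate 5) to 5.13 (without egg removal TP2 replicate 2) for the interaction. None was called. Over all genes these fits called 132 to 482, 504 to 1761, 140 to 653, 4 to 24 and 0 to 2 genes in the 5 brain comparisons, 12 to 1373 and 53 to 1481 in the fat body and 5437 to 6655 in ovaries at TP2. Ovary control TP2 replicates 1 and 4 both left out, chosen after seeing the data, gave 16 members called in ovaries at TP2, against 28. The causes were not tested.

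Within each tissue, same-numbered libraries of different groups were compared for pairing. Their deviations correlated at -0.59 to 0.64 in the brain, -0.27 to 0.38 in the fat body and -0.59 to 0.69 in the ovary. Whether a replicate number marks the same queen in different tissues was not tested. With the replicate block 26 members were called in ovaries at TP2, against 28, the other counts of members were as reported, and 255 genes were called in fat body at TP2, against 478.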
